A study of Drosophila melanogaster with 30 samples.

Results

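The nuclear genes of respiratory complex I were taken as all rows of the counts table whose symbol begins with ND-, which gave 40 of 14326 genes. Of these, 34 were counted as subunits of the enzyme, with ND-MLRQ among them, although its mammalian ortholog is now counted in complex IV. The other 6 are paralogs whose symbols end in L with or without a number (among them ND-20L, ND-24L, ND-51L1, ND-51L2 and ND-B14.5AL). All 40 passed the filter on low counts, and the lowest count of any of them in any library was 136. RNA-seq had been run on pools of whole male Drosophila aged 1 day, all on a w background. Group 1 held 2 libraries of the revertant line pink1RV, in which the Pink1 gene is intact. The other 28 libraries were of flies with the null allele pink1B9. Of these, 8 came from parents without a flying descendant (group 2), 10 from flies that did not fly (group 3) and 10 from flying flies with the same parents as group 3 (group 4). Each library is a pool, and nothing in the labels describes the pools beyond group, sex, age and a tissue label, so p-values measure the spread between pools. All mutants carry 1 allele, and the controls are 1 line.

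Complex I is the entry point of the respiratory chain. It takes electrons from NADH, passes them along a chain of iron-sulphur clusters to ubiquinone and uses the energy released to move protons across the inner mitochondrial membrane. Its NADH-oxidising (N) and ubiquinone-reducing (Q) parts form an arm in the matrix, and its proton-pumping (P) part lies in the membrane. A small set of core subunits is shared with bacteria and carries out the chemistry, some of them encoded in the mitochondrial genome, while many accessory subunits encoded in the nucleus are added around this core. Indirect flight muscle is among the tissues of the fly richest in mitochondria. Drosophila also holds duplicated copies of many nuclear genes for mitochondrial proteins, and such copies are often expressed mainly in the testis. Pink1 is a kinase on the mitochondrial surface that marks damaged mitochondria for removal.

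Total counts ranged from 6434252 to 38330421 per library with a median of 19636778, and the 40 genes held 0.518% to 0.929% of them. Levels are given as CPM, which are counts scaled to a common library total and corrected by TMM for differences in library composition. Where 2 control values are given, GC055040 comes first and GC055041 second. Pink1 was at 221 and 270 CPM in the controls and at 42.5 to 60.5 CPM in group 2, 51.0 to 74.0 CPM in group 3 and 46.4 to 101 CPM in group 4. Group 4 library GC055057 held transcripts of the ovary, which males lack. Cp36, Cp38 and osk summed to 2860 CPM there, and this library also had the highest Pink1 level of the mutants, at 101 CPM. The tissue label of 3 libraries in group 3 and 3 in group 4 reads human skin, although their counts are of fly genes like those of the others. Leaving out GC055057 ended no call among the 40 genes, and calls that changed without the 6 libraries are given with both values.

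The subunits differed between the 2 control libraries. All 34 subunits were higher in control GC055041 than in control GC055040, by 1.94-fold in the median and by 1.43-fold to 2.50-fold over the subunits, whereas the median ratio over 13078 genes was 0.948. The median difference over these genes was 1.21-fold in either direction, and 11.6% of them stood further apart than the median subunit, 7.66% with the higher level in GC055041. Summed over the 34 subunits, the level was 4595 CPM in GC055040 and 8830 CPM in GC055041. The 28 mutants lay between 4666 and 9370 CPM, so that all of them but GC055058 of group 3 fell between the controls. The 6 paralogs went the other way, with ratios of 0.826 to 0.966 and sums of 244 CPM in GC055040 and 210 CPM in GC055041.

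Flight muscle transcripts differed between the same controls. Act88F, the actin of the indirect flight muscle, was at 66.8 CPM in GC055040 and 2929 CPM in GC055041. The flight muscle genes fln and TpnC4 went from 14.3 to 805 CPM and from 16.4 to 498 CPM. The 3 genes summed to 98 and 4231 CPM in the controls, 294 to 4040 CPM in group 2, 697 to 2637 CPM in group 3 and 455 to 6293 CPM in group 4. A list of 14 muscle genes, with these among them, summed to 9393 and 26473 CPM in the controls and to 8870 to 29453 CPM in the mutants. Of the 14 genes, 0 were higher and 0, 1 and 1 lower in groups 2, 3 and 4 against group 1 by edgeR. Among all genes tested, 10.7%, 14.2% and 17.5% were higher and 9.52%, 12.3% and 15.7% lower in these comparisons. The part of flight muscle in the levels of the subunits was not tested. Transcripts of other tissues also differed from group 1. A list of 10 midgut genes summed to 2371 and 5897 CPM in the controls and to 402 to 2086 CPM in the mutants, and 7, 6 and 7 of the genes fell in groups 2, 3 and 4 by edgeR. A list of 10 photoreceptor genes summed to 13111 and 6087 CPM in the controls and to 1573 to 5760 CPM in the mutants, and 8, 9 and 10 of them fell. The part of these tissues in the comparisons of complex I with group 1 was not tested. In whole-fly RNA, fewer cells of a type and less RNA per cell cannot be told apart.

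**Figure D1:**
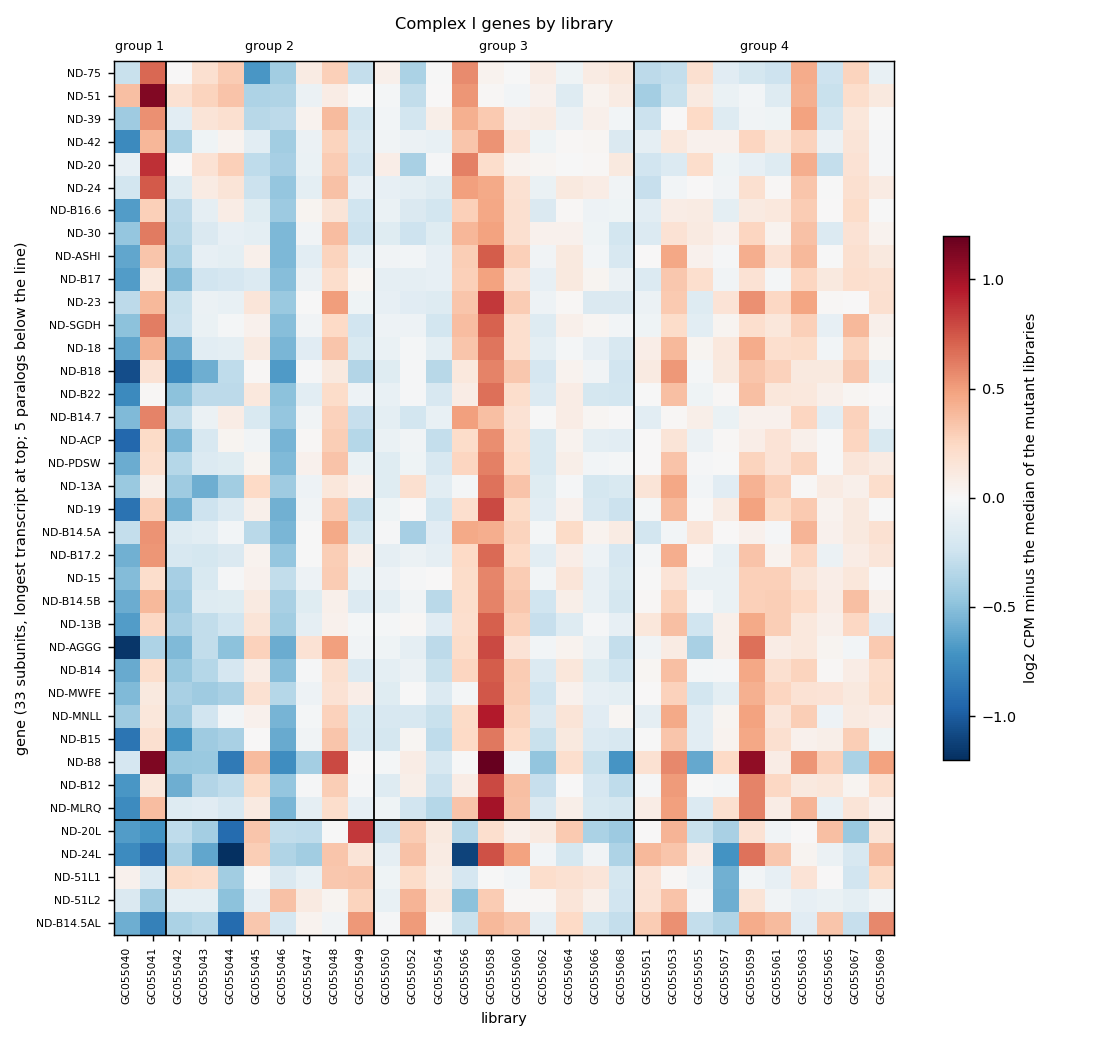
Heat map of 38 complex I genes in the 30 libraries. Colour is log2 CPM minus the median over the 28 mutant libraries, rows are 33 subunits by transcript length (longest at the top) and then 5 paralogs, and columns are libraries by group. Control GC055040 is blue for most subunits and control GC055041 red for most, and group 3 library GC055058 is red for most subunits and near white for ND-51 and ND-75.

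Against the 2 controls, few of the 40 genes changed. By edgeR's quasi-likelihood test, with adjustment over all 13190 genes tested and a threshold of 0.05, 0 were higher and 1 lower in group 2, where 10.7% of all genes were higher and 9.52% lower. In group 3, 2 were higher and 1 lower, beside 14.2% and 12.3% of all genes. In group 4, 3 were higher and 2 lower, beside 17.5% and 15.7% of all genes. A share of the background's size would thus have given more calls among the 40 genes than were found in each direction. The median log2 fold change of the 40 genes was −0.003 in group 2, 0.20 in group 3 and 0.26 in group 4, while that of all genes tested was −0.000, −0.010 and 0.08. Well expressed genes with transcripts as short as those of the shorter subunits had higher medians than those subunits, as given below with transcript length. These 3 comparisons share the same 2 controls and are not separate evidence.

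The choice of control set the direction of the median. With GC055041 as the only control, the median log2 fold change of the 40 genes was −0.38, −0.17 and −0.10 in groups 2, 3 and 4. With GC055040 as the only control, the median was 0.44, 0.64 and 0.68. No median over all genes is given for these fits. For ND-51 the log2 fold changes in groups 2, 3 and 4 were −1.060, −1.052 and −1.105 with GC055041 alone. They were −0.332, −0.327 and −0.386 with GC055040 alone. For ND-20 they were −0.863, −0.767 and −0.855 with GC055041 alone and 0.085, 0.177 and 0.085 with GC055040 alone. In these fits the lone control is assumed to vary like the other groups.

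**Figure D2:**
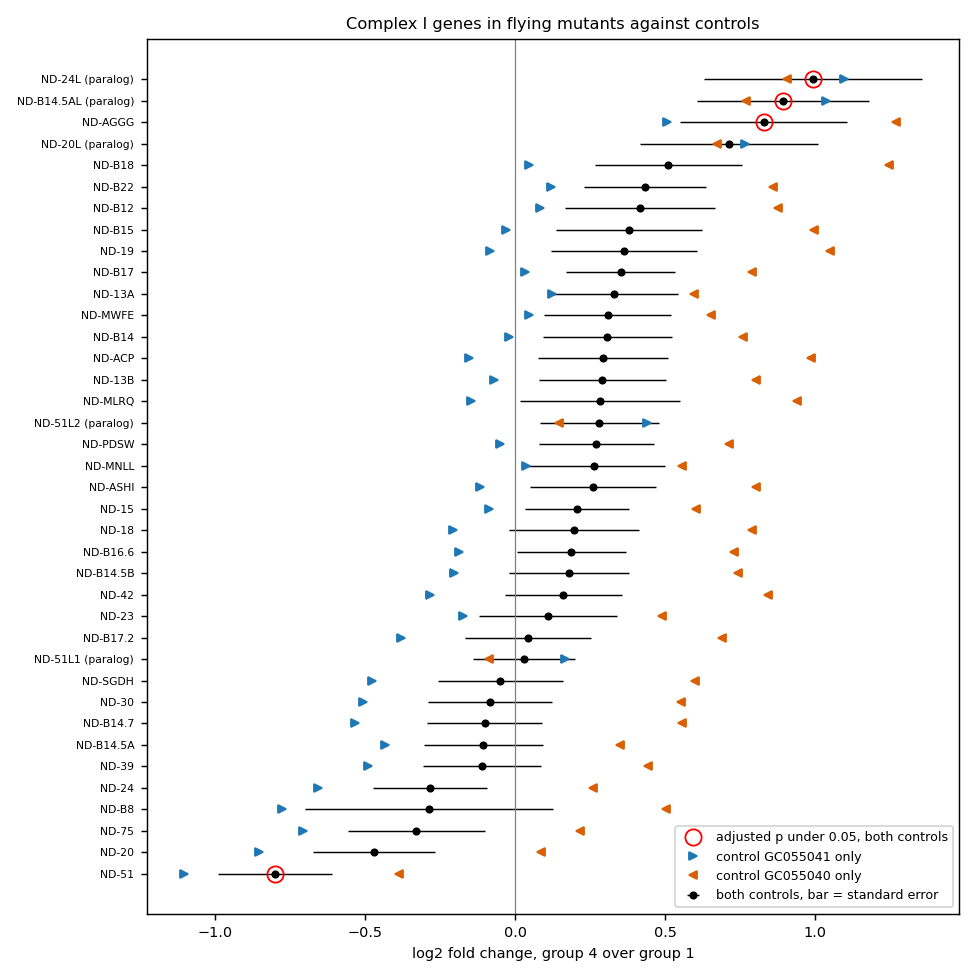
Log2 fold change of 38 complex I genes in group 4 against group 1. Black points and bars are estimates and standard errors with both controls, red circles mark genes past the threshold, and triangles are estimates with 1 control left in. The triangles of the subunits lie far apart, with medians over the 40 genes of −0.10 and 0.68, while those of the paralogs lie close to the black points.

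In the NADH-oxidising part, ND-51 was the subunit that fell in all 3 comparisons. ND-51 (FBgn0031771, arm 2L, 6060842 to 6062757 in BDGP6.54) is the ortholog of human NDUFV1, which binds NADH and the flavin that takes its electrons. It was at 414 CPM in GC055040 and 698 CPM in GC055041. The lowest, median and highest values were 249, 332 and 409 CPM in group 2, 263, 325 and 467 CPM in group 3, and 244, 310 and 432 CPM in group 4. All 8 libraries of group 2, 9 of 10 in group 3 and 9 of 10 in group 4 lay below both controls. The log2 fold changes were −0.75 (standard error 0.20, adjusted p = 0.0072), −0.75 (standard error 0.19, adjusted p = 0.0056) and −0.80 (standard error 0.19, adjusted p = 0.0024) by edgeR. Without GC055041 they were −0.33, −0.33 and −0.39, and the adjusted p-values were 0.51, 0.46 and 0.34. In a fit of groups 1 and 2 alone, the adjusted p in group 2 was 0.053. An exon of ND-51 overlaps the gene CG34180 on the opposite strand, and no source used here states whether the counting used strand.

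The remaining 7 subunits of the N part did not pass the threshold. ND-75, the ortholog of NDUFS1 and the largest of the iron-sulphur subunits, was at 393 and 762 CPM in the controls and had medians of 490, 488 and 419 CPM in groups 2, 3 and 4. Its log2 fold change in group 4 was −0.33 with a standard error of 0.23. ND-24, the ortholog of the iron-sulphur subunit NDUFV2 that sits beside ND-51, was at 137 and 266 CPM in the controls and at 132 to 201 CPM in group 4, with a log2 fold change of −0.28 (standard error 0.19). Without GC055040 the value was −0.66 (adjusted p = 0.039 by edgeR), and without GC055041 it was 0.26 (adjusted p = 0.51). The accessory subunit ND-B8 had the lowest level of the subunits per length, and was at 25.6 ± 15.5 CPM (SD, n = 2) in the controls and a median of 20.3 CPM in group 4. ND-13A, the ortholog of the zinc-binding subunit NDUFS6, differed on the log2 scale by 0.33 (standard error 0.21) in group 4. Over the 8 genes of the N part, the median log2 fold change was −0.30 in group 2, −0.14 in group 3 and −0.20 in group 4.

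In the ubiquinone-reducing part, ND-20, ND-30 and ND-23 encode core subunits, and ND-20 and ND-23 hold iron-sulphur clusters. ND-20 was at 145 and 285 CPM in the controls and at 127 to 210 CPM in group 4, which on the log2 scale was a difference of −0.47 from the controls (standard error 0.20, adjusted p = 0.072 by edgeR). Without GC055040 the difference of ND-20 was −0.86, −0.77 and −0.86 in groups 2, 3 and 4 (adjusted p = 0.022, 0.035 and 0.015), and without GC055041 it was 0.09, 0.18 and 0.09 (adjusted p = 0.89, 0.72 and 0.87). ND-30 was at 128 and 274 CPM in the controls and at 158 to 227 CPM in group 4, and ND-23 at 154 and 251 CPM and at 172 to 281 CPM. Their log2 fold changes in group 4 were −0.08 (standard error 0.21) and 0.11 (standard error 0.23). Without GC055040, ND-30 was called lower in group 2, at −0.73 (adjusted p = 0.043), and the value there was −0.31 with both controls. The controls of ND-30 and ND-23 thus enclosed every group 4 library of ND-30 and 8 of 10 of ND-23. Over the 7 genes of the Q part, the median log2 fold change was −0.15, −0.06 and −0.08 in groups 2, 3 and 4.

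In the membrane part, ND-AGGG rose in groups 3 and 4. ND-AGGG (FBgn0058002, arm 3L, 24976254 to 24977118) is the ortholog of the accessory subunit NDUFB2. It was at 103 CPM in GC055040 and 179 CPM in GC055041. The lowest, median and highest values were 153, 206 and 326 CPM in group 2, 186, 225 and 402 CPM in group 3, and 177, 244 and 366 CPM in group 4. Above both controls lay 5 of 8 libraries in group 2, all 10 in group 3 and 9 of 10 in group 4. The log2 fold changes were 0.64 (standard error 0.28, adjusted p = 0.10), 0.78 (standard error 0.28, adjusted p = 0.037) and 0.83 (standard error 0.28, adjusted p = 0.024) by edgeR. Without GC055040 the values in groups 3 and 4 were 0.46 (adjusted p = 0.40) and 0.51 (adjusted p = 0.32), and without the 6 libraries labelled human skin the adjusted p in group 3 was 0.054.

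None of the other 18 subunits of the membrane part passed the threshold with both controls, although most were positive. Over the 19 genes, 13, 17 and 17 had a log2 fold change above 0 in groups 2, 3 and 4, with medians of 0.03, 0.23 and 0.28. ND-B18, the ortholog of NDUFB7, was at 46.5 and 110 CPM in the controls and at 92.4, 106 and 140 CPM (lowest, median, highest) in group 4, which on the log2 scale was 0.51 above the controls (standard error 0.25, adjusted p = 0.11 by edgeR). ND-B22, the ortholog of NDUFB9, had 0.43 (standard error 0.20) and ND-B17, the ortholog of NDUFB6, 0.35 (standard error 0.18). ND-19 and ND-42, also of this part, had 1.05 and 0.844 in group 4 with GC055040 as the only control. With GC055041 as the only control they had −0.083 and −0.283. ND-B14.7, also of the membrane part, was called lower in group 2 with GC055041 as the only control, at −0.68 (adjusted p = 0.035), where the value with both was −0.25.

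**Figure D3:**
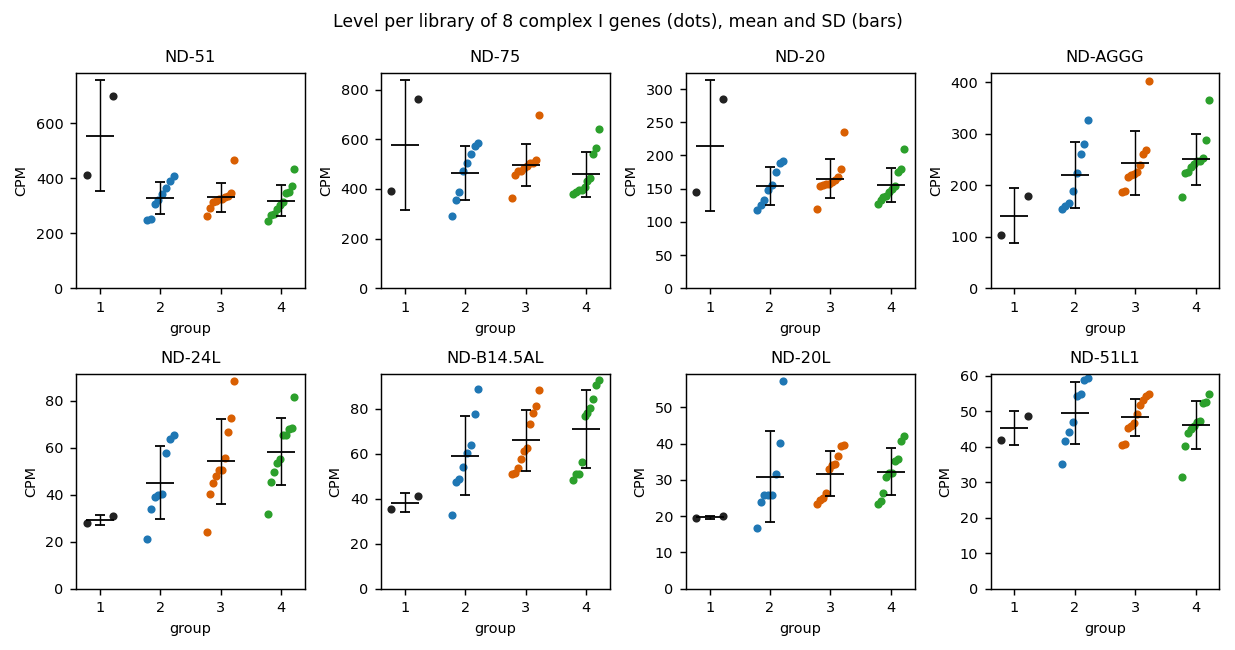
Level in CPM of 8 complex I genes in each library (dots) by group, with the mean and SD (bars). Subunits are ND-51, ND-75, ND-20 and ND-AGGG, and paralogs are ND-24L, ND-B14.5AL, ND-20L and ND-51L1. The controls lie far apart for the subunits (414 and 698 CPM for ND-51) and close together for the paralogs (30.8 and 27.8 CPM for ND-24L).

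The paralogs had a larger median fold change than the subunits. All 6 had a log2 fold change above 0 in each comparison, with medians of 0.55, 0.59 and 0.60 in groups 2, 3 and 4, against −0.03, 0.17 and 0.20 over the 34 subunits. ND-B14.5AL passed the threshold in groups 3 and 4, ND-24L in group 4, and the other 4 in none. Their controls were close to each other, so that their estimates depended less on the choice of control than those of the subunits.

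ND-24L (FBgn0036706, arm 3L, 17319969 to 17320811) resembles ND-24. It was at 30.8 and 27.8 CPM in the controls. The lowest, median and highest values were 21.2, 40.1 and 65.6 CPM in group 2, 24.1, 50.6 and 88.3 CPM in group 3, and 31.6, 60.1 and 81.8 CPM in group 4. All 10 libraries of group 4 lay above both controls, as did 7 of 8 in group 2 and 9 of 10 in group 3. The log2 fold changes were 0.62 (standard error 0.36, adjusted p = 0.22), 0.89 (standard error 0.36, adjusted p = 0.066) and 0.99 (standard error 0.36, adjusted p = 0.036) by edgeR. In group 4 the value was 1.10 (adjusted p = 0.13) without GC055040, 0.91 (adjusted p = 0.25) without GC055041 and 1.04 (adjusted p = 0.059) without the libraries labelled human skin.

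ND-B14.5AL (FBgn0037172, arm 3L, 22606369 to 22607126) resembles ND-B14.5A, the ortholog of the accessory subunit NDUFA7. It was at 41.1 CPM in GC055040 and 35.2 CPM in GC055041. The lowest, median and highest values were 32.7, 57.1 and 88.5 CPM in group 2, 50.9, 61.9 and 88.3 CPM in group 3, and 48.2, 77.4 and 92.5 CPM in group 4. Every library of groups 3 and 4 and 7 of 8 in group 2 lay above both controls. The log2 fold changes were 0.63 (standard error 0.29, adjusted p = 0.11), 0.79 (standard error 0.29, adjusted p = 0.041) and 0.89 (standard error 0.29, adjusted p = 0.019) by edgeR. In group 4 the value was 1.04 (adjusted p = 0.075) without GC055040 and 0.77 (adjusted p = 0.20) without GC055041, and in group 3 it was 0.93 (adjusted p = 0.12) and 0.67 (adjusted p = 0.30). Without the libraries labelled human skin the adjusted p in group 3 was 0.051.

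ND-20L, which resembles ND-20, did not pass the threshold although nearly all mutants lay above the controls. ND-20L was at 19.7 ± 0.48 CPM (SD, n = 2) in the controls and at 23.3, 31.8 and 42.2 CPM (lowest, median, highest) in group 4, and every library of groups 3 and 4 was above both controls. On the log2 scale it differed from the controls by 0.65 in group 2, 0.69 in group 3 and 0.71 in group 4 (adjusted p = 0.12, 0.082 and 0.063 by edgeR). It passed in group 4 with DESeq2, and in groups 3 and 4 in fits of only the 2 groups compared. Without GC055040 the log2 fold changes of ND-20L in groups 3 and 4 were 0.73 and 0.765. Without GC055041 they were 0.65 and 0.67, and in neither fit did ND-20L pass.

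ND-51L1 and ND-51L2, which resemble ND-51, differed least from the controls among the paralogs. ND-51L1 was at 48.5 and 41.8 CPM in the controls and at 31.6, 46.4 and 55.0 CPM in group 4, with a log2 fold change of 0.03 (standard error 0.17). ND-51L2 was at 32.8 and 27.5 CPM in the controls and at 24.6, 36.0 and 46.9 CPM in group 4, with a log2 fold change of 0.28 (standard error 0.20). With both controls, neither had a log2 fold change below 0 in any of the 3 comparisons, unlike ND-51. Without GC055041, ND-51L1 was at 0.02, −0.02 and −0.09 in groups 2, 3 and 4, so its sign depended on the control.

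Testis transcripts moved with the paralogs from library to library. The sum of betaTub85D, dj and Mst87F, which are expressed in male germ cells, was 1997 and 1816 CPM in the controls, 1714 to 4183 CPM in group 2, 2466 to 4265 CPM in group 3 and 2204 to 4101 CPM in group 4. The 6 paralogs summed to 244 and 210 CPM in the controls and to 185 to 425 CPM in the 28 mutants. Per 100 CPM of the 3 testis genes, the paralogs took 12.2 and 11.6 CPM in the controls and 8.76 to 11.7 CPM in the mutants, a far narrower range than that of the sums. Among the mutants, group 2 library GC055044 had the lowest paralog sum (185 CPM) and the lowest testis sum (1714 CPM), and GC055049 of the same group had the highest paralog sum (425 CPM) and a testis sum of 4183 CPM. Of a list of 24 testis and sperm genes, 6, 14 and 17 were higher and 0 lower in groups 2, 3 and 4 against group 1 by edgeR. Among all genes 10.7%, 14.2% and 17.5% were higher. The summed level of the list was 11917 and 10695 CPM in the controls and 12034 to 21817 CPM in group 4. The part of testis content in the levels of the paralogs was not tested.

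**Figure D4:**
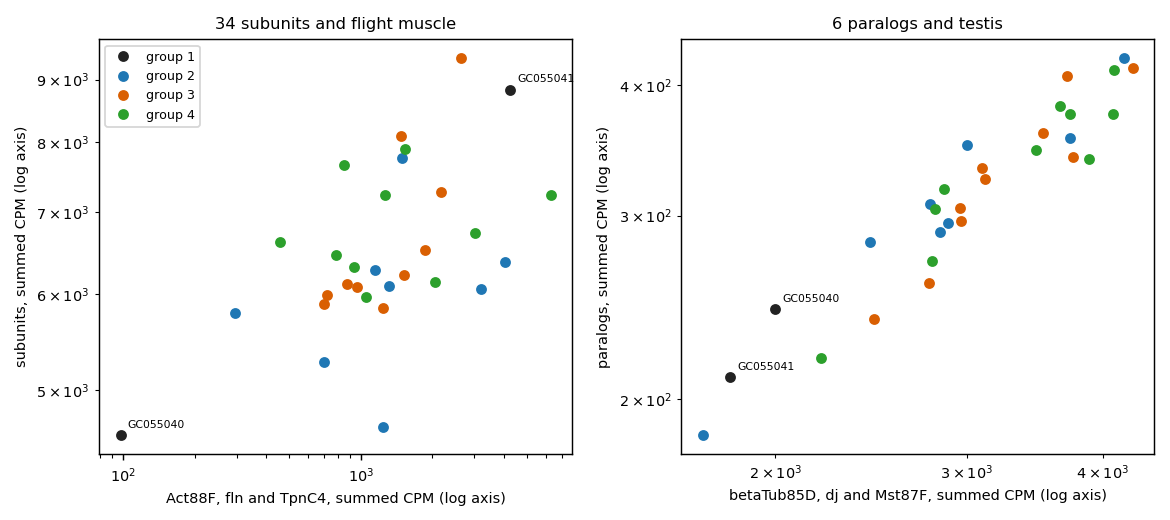
Summed levels in each library, on log axes, coloured by group. At left, the 34 subunits against 3 flight muscle genes, and at right, the 6 paralogs against 3 testis genes. The paralogs lie along a line at 8.76 to 12.2 CPM per 100 CPM of the testis genes. The subunits summed to 4595 to 9370 CPM, while the 3 flight muscle genes ranged from 98 to 6293 CPM.

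The ratio of the subunits to flight muscle transcripts depended on which muscle genes were taken. Per 100 CPM of Act88F, fln and TpnC4, the 34 subunits took 4710 CPM in GC055040 and 209 CPM in GC055041, and 115 to 1967 CPM in the mutants. Per 100 CPM of the list of 14 muscle genes they took 48.9 CPM in GC055040 and 33.4 CPM in GC055041, and 22.7 to 64.5 CPM in the mutants. The 3 testis genes differed little between the controls, with a ratio of 0.909.

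Divided by the mean length of a gene's transcripts, the paralogs were below the subunits they resemble in the mean of every group. Over all libraries, ND-MLRQ was the highest of the 40 genes at 837 ± 217 CPM per kb (SD, n = 30), followed by ND-B12 at 459 ± 109 and ND-AGGG at 391 ± 104. The ortholog of ND-MLRQ in mammals, NDUFA4, is now counted as a part of complex IV. ND-B12 and ND-AGGG lay within their spread of each other, as did ND-AGGG and ND-ACP, at 349 ± 65.4 CPM per kb. Divided by the longest transcript instead, ND-ACP at 331 ± 62.0 came before ND-AGGG at 312 ± 82.7. The lowest subunits were ND-B8 at 41.3 ± 18.4 CPM per kb, ND-B14.5A at 115 ± 21.3 and ND-B18 at 129 ± 30.6. The paralogs ran from 84.2 CPM per kb for ND-B14.5AL to 24.0 for ND-51L2 and 22.2 for ND-51L1, and the last pair lay within their spread of each other.

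The level of a paralog as a percentage of its subunit, per length, was higher in the mutants than in the controls for all 6 in the mean. For ND-B14.5AL it was 59.7% in GC055040 and 28.9% in GC055041, and 81.6% ± 23.9 (SD, n = 10) in group 4, where the highest library reached 110%. For ND-24L it was 26.2% and 12.2% in the controls and 41.7% ± 11.5 (SD, n = 10) in group 4. For ND-51L1 it was 8.60% and 4.39% in the controls and 10.9% ± 2.54 (SD, n = 10) in group 4. Each of these 3 percentages was higher in GC055040, the control with the lower subunits and the higher paralogs. In each mutant group the lowest library was below GC055040 for all 3. In group 4 it was at 50.6% for ND-B14.5AL, 23.9% for ND-24L and 7.59% for ND-51L1. No test was made on the percentages.

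Between the 3 mutant groups, none of the 40 genes passed the threshold with edgeR, DESeq2 or limma-voom, beside 0.0% of all genes with edgeR. In group 4 against group 3, the flying and the non-flying descendants of the same parents, the median log2 fold change was 0.04 over the 40 genes and 0.03 over all genes. The standard errors ran from 0.10 to 0.25, the smallest adjusted p was 0.76, and 0 of the 40 genes had an unadjusted p under 0.05 with any of the 3 tools, against 8.0% of all genes with edgeR. ND-B18, an accessory subunit, differed on the log2 scale by 0.15 (standard error 0.14). No label matches a library of group 4 with its counterpart in group 3, and the comparison was unpaired.

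The subunits were on the low side in group 2. In group 4 against group 2, 31 of 34 subunits and all 19 of the membrane part had a log2 fold change above 0, and the median over the 40 genes was 0.21 against 0.04 over all genes. An unadjusted p under 0.05 was reached by 13 of the 40 genes with edgeR, all of them subunits and all higher, beside 6.82% of all genes in that direction. DESeq2 gave 13 and limma-voom 16. The smallest adjusted p was 0.26 by edgeR, for ND-B18. ND-B18 was at 57.5, 77.7 and 106 CPM (lowest, median, highest) in group 2 and at 92.4, 106 and 140 CPM in group 4, and 5 of 10 libraries of group 4 lay above all of group 2. Its log2 fold change was 0.48 (standard error 0.15).

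In group 3 against group 2, the 34 subunits all had a log2 fold change above 0, with a median over the 40 genes of 0.18 against 0.002 over all genes. Here well expressed genes up to 701 bases had a median of 0.111, beside 0.212 for the 17 subunits this short. Longer well expressed genes had 0.020, beside 0.183 for the 17 longer subunits. Only ND-B18 at 0.33 and ND-B17 at 0.24 had an unadjusted p under 0.05 by edgeR (adjusted p = 1 for both), beside 1.84% of all genes. DESeq2 and limma-voom each gave 2 such genes. The summed level of the subunits averaged 6037 ± 900 CPM over the 8 pools of group 2 (SD), 6738 ± 1169 CPM over the 10 pools of group 3 and 6824 ± 653 CPM over the 10 pools of group 4. These groups overlapped, with 4666 to 7761 CPM in group 2 and 5962 to 7893 CPM in group 4. The subunits moved together from library to library, as described next, so the number of subunits on one side is not a number of separate observations.

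Among the 28 mutants, 8 libraries had at least 80% of the 34 subunits above their own mutant median, and 8 had at most 20% above it. The high libraries were 1 in group 2, 3 in group 3 and 4 in group 4, and the low ones were 5 in group 2, 3 in group 3 and 0 in group 4. In GC055048 of group 2, GC055058 of group 3 and GC055063 of group 4 all 34 subunits were above, and in GC055046 of group 2 it was 0 of 34. The subunits summed to 9370 CPM in GC055058 and to 4666 CPM in GC055046.

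Longer transcripts had lower fold changes than shorter ones among the subunits. Mean transcript lengths in BDGP6.54 ran from 452 bases for ND-MLRQ to 2557 bases for ND-75. The 17 shorter subunits (up to 701 bases) had a median log2 fold change of 0.29 in group 4 against group 1, and the 17 longer ones (from 712 bases) −0.05. ND-51, which fell in all 3 comparisons, was among the 3 longest, at 1572 bases. The Pearson correlation of fold change with log2 length across the 34 subunits was −0.42, −0.51 and −0.61 in groups 2, 3 and 4 against group 1, and −0.72 in group 4 against group 3 and −0.74 in group 4 against group 2. The subunits share their libraries, and genes are not independent replicates.

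The relation of fold change to length was not particular to complex I. Over 12980 genes with a length the correlations were −0.19, −0.25 and −0.26 in groups 2, 3 and 4 against group 1, −0.10 in group 4 against group 3 and −0.21 in group 4 against group 2. Over the 4126 genes with a mean of at least 50 CPM they were −0.26, −0.35, −0.39, −0.23 and −0.50. The median length was 976 bases in the Q part and 724 bases in the N part against 695 bases in the membrane part, so the part of the enzyme and the transcript length cannot be told apart in full.

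**Figure D5:**
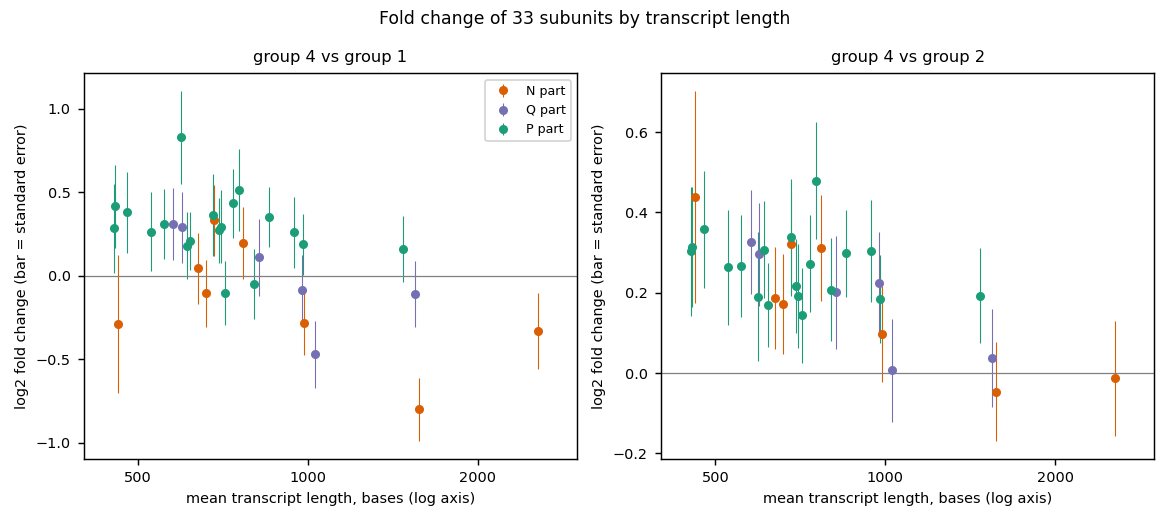
Log2 fold change of 33 subunits against mean transcript length in bases (log axis), in group 4 against group 1 (left) and in group 4 against group 2 (right), with standard errors as bars and the part of the enzyme as colour. ND-51, at 1572 bases, lies lowest in both panels, and ND-75, at 2557 bases, lies below 0.

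Position in the genome was mixed. Of the 34 subunits 9 lie on the X chromosome, and the paralogs lie on 2R, 3L and 3R with 2 on each. ND-ASHI, the ortholog of NDUFB8, is the nearest of them to Pink1, with 4680 bases between the genes, and its log2 fold change in group 4 was 0.26 (standard error 0.21). In BDGP6.54, 17 of the 40 genes share exon sequence with another coding gene, mostly on the opposite strand. ND-AGGG and the 6 paralogs do not.

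Of the 7 subunits encoded in the mitochondrial genome, 1 rose in each comparison with group 1 by edgeR, and 1, 3 and 3 fell in groups 2, 3 and 4. Among all genes 10.7%, 14.2% and 17.5% rose and 9.52%, 12.3% and 15.7% fell. mt:ND5, which encodes one of the proton-pumping subunits, was at 566 CPM in GC055040 and 2199 CPM in GC055041. Its lowest, median and highest values were 172, 328 and 993 CPM in group 2, 182, 350 and 596 CPM in group 3, and 141, 210 and 523 CPM in group 4. It fell in all 3 comparisons, with log2 fold changes of −1.55, −2.04 and −2.49 (adjusted p = 0.026, 0.0023 and 0.00022). mt:ND4, at 732 and 2535 CPM in the controls and 172 to 523 CPM in group 4, and mt:ND1, at 873 and 2034 CPM and 416 to 918 CPM, fell in groups 3 and 4. As for the nuclear subunits, GC055041 was the higher control, and without it the log2 fold changes of mt:ND1, mt:ND4 and mt:ND5 in group 4 were −0.45, −1.36 and −1.21, with adjusted p-values of 0.47, 0.20 and 0.22.

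The mitochondrial transcript that rose, mt:ND4L, had low counts, with 0.54 and 0.40 CPM in the controls and 0.80 to 4.00 CPM in group 4, and without either control it did not pass the threshold (adjusted p = 0.060 and 0.13 in group 4). NP15.6, the ortholog of the membrane subunit NDUFB11 and the nuclear subunit without the ND- prefix, was at 107 and 253 CPM in the controls and at 136 to 195 CPM in group 4, with a log2 fold change of −0.17 (standard error 0.22).

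Of 9 assembly factor genes, which help build complex I without being part of it, 1, 1 and 2 rose in groups 2, 3 and 4 by edgeR and 0 fell. Among all genes 10.7%, 14.2% and 17.5% rose, so these counts were near the share of the background. CG11722, the ortholog of NDUFAF4, was at 30.2 and 29.9 CPM in the controls. It reached 33.6, 53.7 and 79.8 CPM (lowest, median, highest) in group 2, 43.2, 57.0 and 80.3 CPM in group 3, and 45.3, 64.1 and 80.3 CPM in group 4. All 28 mutants thus lay above both controls, which were almost equal. The log2 fold changes were 0.89 (adjusted p = 0.021), 1.00 (adjusted p = 0.0083) and 1.08 (standard error 0.27, adjusted p = 0.0039). In group 4 the value was 1.11 (adjusted p = 0.046) without GC055040 and 1.06 (adjusted p = 0.064) without GC055041, and in groups 2 and 3 neither lone control gave an adjusted p under 0.05. CG5569, the ortholog of NDUFAF3, was at 28.6 and 25.2 CPM in the controls and at 33.6 to 58.1 CPM in group 4, where it rose by 0.71 on the log2 scale (standard error 0.23, adjusted p = 0.021, and 0.076 and 0.21 without GC055040 and GC055041).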

How the data were processed

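RNA-seq of 30 pools of whole male flies was analysed. The authors filtered the reads with fastp, pseudoaligned them with kallisto to fly transcripts and, for their limma tests, turned the abundances into length-scaled counts with tximport. The deposited counts were whole numbers, and it is not stated whether they are these length-scaled counts or plain sums, which bears on comparisons by length. The submitters' processing notes name kallisto 0.45.0 and the human build GRCh38, although the table holds fly genes.

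Counts were tested with edgeR 4.0.16 (R 4.3.3) by the quasi-likelihood F-test in 1 model over all 4 groups, after filterByExpr and TMM scaling, with Benjamini-Hochberg adjustment over 13190 genes and a threshold of 0.05. The spread was estimated over all groups because group 1 had only 2 libraries. The steps were tested on simulated data. No column was left without a sample and no 2 libraries were identical. Counting noise was not separated from the spread between pools.

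The members, gene lists and tests were chosen with earlier results of these data known. Genes were named by a rule: every paralog with its subunit, the 7 core subunits encoded in the nucleus, the subunits with the smallest p in group 4 against groups 1 and 3, and those highest and lowest per length. Subunits were placed in parts of the enzyme from the human and bovine orthologs. ND-MLRQ was kept in the membrane part and in all counts and sums of the subunits. The genes of the other lists that are named were those called or, for NP15.6, the only gene. ND-19, ND-42, ND-ACP, ND-ASHI and ND-B14.7 were named after their values were seen. Positions and lengths came from the BDGP6.54 annotation, while the authors used BDGP6.46. The alternatives tried were limma-voom with limma 3.58.1, DESeq2 1.42.0, edgeR with other size factors or other filters, fits of only the groups compared, and fits without GC055057, without the libraries labelled human skin and without each control. A subunit and its paralog are counted in the totals and sums but are not reported here by name or shown in the plots of single genes. Sequences were not used here.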

Additional observations from a re-analysis of the deposited data

Results flagged for a closer look

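In each mutant group, the highest and lowest library of each of 38 genes was set against the rest of its group, and 11 of 114 such groups held a library far from the others by Dixon's criterion, where chance flags about 1 in 20. The genes are not independent of each other.

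Of the 11 values, 9 came from group 3 library GC055058, in which all 34 subunits were above their mutant median and which was the highest of its group for ND-19 (225 CPM), ND-23 (344 CPM), ND-AGGG (402 CPM), ND-ASHI (249 CPM), ND-B17.2 (263 CPM), ND-B22 (318 CPM), ND-B8 (45.1 CPM), ND-MLRQ (715 CPM) and ND-MNLL (156 CPM). The next library was lower by 2.33-fold for ND-B8 and by 1.35-fold to 1.61-fold for the other 8. In the same library the shorter subunits stood further above their mutant medians (0.72 on the log2 scale) than the longer ones (0.48).

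Group 3 library GC055056 was the highest for the long core subunit ND-51 (467 CPM), and there the longer subunits stood further above their medians (0.37) than the shorter ones (0.22). Group 4 library GC055057, which held ovary transcripts, was the lowest for the paralog ND-51L2 (24.6 CPM).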

How the results depend on the processing

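Which of the 40 genes passed the threshold against group 1 changed with the controls in every mutant group. In group 3 the calls were all lower with GC055041 as the only control and all higher with GC055040 as the only control, and the called genes differed. The number of genes past the threshold changed more in groups 2 and 4 than in group 3. Leaving out each control in turn, it ranged from 0 to 6 in group 2, from 3 to 4 in group 3 and from 4 to 9 in group 4, and the median log2 fold change from −0.38 to 0.44, from −0.17 to 0.64 and from −0.10 to 0.68. Fewer samples enter such fits. In fits of only the 2 groups compared, the number was 0 in group 2 and 5 in group 3, and without the libraries labelled human skin it was 1 in group 3. The cause was not tested. Over the 23 genes of the naming rule, 1380 values were compared: 1307 kept their direction and side of the threshold, 18 lost and 19 gained the call, 36 uncalled values moved by more than the replicate spread or changed sign, and no called value changed sign. Counts between the mutant groups were 0 under every alternative run. No paired analysis was possible because the labels carry no replicate number and tie no library of group 4 to one of group 3, although these groups share parents.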
